A study of Mus musculus with 4 samples.

Results

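The genes described here are 8 that act on stored fat: Plin2, Dgat1 and Hilpda, whose proteins build and guard the lipid droplet, Pnpla2, which breaks it down, Cpt1a, Acot1 and Pdk4, which handle the released fatty acids, and the secreted Angptl4. They were taken by symbol from the 32285 genes of the count matrices, and all 8 were found. They were followed over the cell types of liver metastatic tumours of the mouse colon carcinoma line MC38 grown in C57BL/6J mice. Cells enriched for CD45 on magnetic beads were read by 10x Genomics 3′ single-cell RNA sequencing. Mice received a low-fat diet (LFD) or a high-fat diet (HFD), and the tumour line was WT-MC38 or shYap-MC38, by its name a short-hairpin knockdown of Yap. Each of the 4 combinations was 1 library, called after its title LFD_WT, LFD_shYap, HFD_WT or HFD_shYap. The titles call the mice of all 4 libraries WT, those of the shYap libraries included. In the library names used here WT stands for the tumour line. Values given without library names follow that order. The labels of LFD_shYap conflict, since its title reads low-fat and its treatment entry high-fat. Titles were used, and every diet value below that includes LFD_shYap rests on that reading. The comparisons implied are those of diet within a line and of line within a diet. The knockdown is a property of the injected line and not of the mouse's own cells, and the labels used here do not say how many mice, of which age or sex, gave each library.

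Fat is stored as triglyceride in droplets coated by perilipins, of which Plin2 is the form found in most cells outside fat tissue. Dgat1 joins the last fatty acid to make triglyceride, Pnpla2 (adipose triglyceride lipase) removes the first, and Hilpda, a target of the hypoxia-inducible factors, inhibits Pnpla2. Free fatty acids are also ligands of the peroxisome proliferator-activated receptors (PPARs), which switch on Plin2, Angptl4, Cpt1a, Pdk4 and Acot1. Cpt1a carries long-chain acyl groups into mitochondria, Acot1 splits acyl-CoA in the cytosol, Pdk4 turns off pyruvate dehydrogenase, and Angptl4 inhibits lipoprotein lipase outside the cell. In macrophages, lipid loading is known to raise several of these transcripts.

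In the GENCODE annotation of GRCm38, Plin2 lies at chr4:86648386-86670060 on the minus strand, Pnpla2 at chr7:141455198-141460743 on the plus strand, Acot1 at chr12:84009490-84018371 on the plus strand and Angptl4 at chr17:33773750-33781830 on the minus strand. Dgat1 lies at chr15:76502015-76511953 on the minus strand, Cpt1a at chr19:3322334-3385733 on the plus strand, Pdk4 at chr6:5483351-5496309 on the minus strand and Hilpda at chr6:29272488-29275446 on the plus strand. No other annotated gene overlaps any of the 8. In a comparison of the last 400 bases of each coding transcript with the transcripts of other genes, the Plin2 end was 89.9% identical over 387 bases to the gene model Gm12551, and the Acot1 end was 81.3% identical over 198 bases to its neighbour Acot2 and 86.6% over 82 bases to Acot5. The Hilpda end was 85.3% identical over 102 bases to the gene model Gm19257, and matches of the other members were at most 75.0% identical. Reads shared with these genes could touch the counts of Plin2, Acot1 and Hilpda.

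Angptl4 and Dgat1 had no entry among the RefSeq promoter windows (GRCm38.p6, the 250 bases before a start site). Such windows were at hand for 6 members in 7 entries, Hilpda having a pair of starts. They were searched on both strands for the PPAR response element, read as 2 copies of AGGNCA with 1 base between them, for the unit AGGTCA, which the element can contain, and for the core ACGTG of the hypoxia-inducible factors. The full element was in 0 of the 7 windows and in 0.338% of all 32851 promoters of that length. AGGTCA was in the Plin2 and Cpt1a windows and in 14.024% of all promoters, and ACGTG was in the window of the downstream Hilpda start and in 16.572%. That Hilpda match lies after the upstream start of the gene. The Cpt1a window (chr19:3323051-3323300) lies inside the gene as annotated above, after its annotated start. The 3 matches are shown with 12 bases on each side, 5′ to 3′ on the gene's strand, with the match in capitals. Among the 6 members searched, Plin2, Cpt1a and Hilpda are those these motifs separate. The Plin2 match begins 218 bases before the start (chr4:86670260-86670289, minus), the Cpt1a match 94 bases before (chr19:3323195-3323224, plus) and the Hilpda match 43 bases before (chr6:29272571-29272599, plus).
Plin2: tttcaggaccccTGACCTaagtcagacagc
Cpt1a: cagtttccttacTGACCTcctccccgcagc
Hilpda: gatggccagcggACGTGccccagggcgag
In Plin2 and Cpt1a the unit lies on the opposite strand, so that its complement is printed. A match of these lengths is a description of the letters and no binding site.

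Of 50062 barcodes, 38882 passed the filters, between 7388 and 11306 a library, with median depths of 6812.5 to 10029 UMIs (unique molecular identifiers, 1 per captured transcript). Clustering without the members and their pathway genes among the variable genes gave 26 clusters, of which 21 were named from their markers. An unnamed cluster of 3780 cells led by H2-Eb1, with C1qa at 7075 CPM, was kept out of the phagocytes. The 3 lineages with most cells were mononuclear phagocytes (3801 to 6066 cells a library, 9 clusters), the T lineage (658 to 1176) and neutrophils (320 to 970). Ptprc, which encodes CD45, was at 278 to 364 CPM over all cells, where CPM is the count of a gene scaled to a common total of UMIs per sum. Yap1 in the tumour-like cluster was at 19.5, 14.7, 15.5 and 19.7 CPM in library order, so it did not separate the lines, and a library name always means the library so labelled. HFD_shYap stood apart by its Xist, 361 CPM over all cells against at most 0.0657 in the others, beside Y-linked transcripts at a summed 102 to 124 CPM in all 4. Its ratios to other libraries thus hold a difference in Xist, a sex-linked transcript, that cannot be told apart from diet or line. Values without each library are given where they matter. Between 33 and 63 cell barcodes were shared by each pair of libraries. A set of 7 macrophage genes (C1qa, C1qb, C1qc, Apoe, Adgre1, Csf1r and Ms4a7), none at 0 in any lineage and library, stood in the T lineage at 11.9% to 15.2% of its phagocyte level, taken here as the level of free RNA, and in neutrophils at 15.6% to 37.2%.

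Plin2 was the most abundant member in phagocytes. LFD_WT had 404 CPM (399 to 409), LFD_shYap 793 (787 to 800), HFD_WT 637 (631 to 643) and HFD_shYap 512 (506 to 517), where brackets hold the exact 95% Poisson interval, which covers counting error only. LFD_WT was the lowest and LFD_shYap the highest, a spread of 1.96 times. Ordered by the mean over the 4 libraries, which differ in diet and line, Plin2 was highest in neutrophil-like cells (1068 ± 454 CPM, SD, n = 4), then in the Jaml-high (743 ± 281), Marco/Saa3 (729 ± 192) and Mmp12/Arg1 (634 ± 171) macrophage-like clusters. The ranges over libraries of these neighbours overlapped. The Jaml-high mean includes only 37, 37 and 48 cells of LFD_WT, HFD_WT and HFD_shYap, in which Jaml was not raised (values below). It was lowest in cycling Cd8a T cell-like cells, at 44.8 CPM. The other perilipins were scarce: Plin3 was at 30.5 to 39.1 CPM in phagocytes, and Plin1, Plin4 and Plin5 were at or under 0.0778 CPM there. These are levels of UMIs, to which transcript length does not contribute in a 3′ assay.

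Dgat1 had another distribution. Its mean was 313 ± 99.7 CPM (SD, n = 4) in neutrophil-like cells, 139 ± 93.8 in Icos/Ikzf2 T cell-like cells and 136 ± 72.6 in NK cell-like cells, with overlapping ranges, and it was lowest in the Ptprc-low tumour-like cluster at 15.7 CPM. Dgat2, the unrelated enzyme of the same reaction, was at 84.9 to 170 CPM in neutrophils and at 6.71 to 8.14 in phagocytes. Among phagocyte clusters of 50 or more cells the Mmp12/Arg1 cluster was highest for Dgat1 in each of the 4 libraries, at 36.9, 49.7, 56.3 and 67.6 CPM. That cluster had 116, 149, 647 and 960 cells, and Xist, which was high in HFD_shYap only, was among its leading genes.

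Pnpla2 was highest in the Jaml-high macrophage-like cluster (121 ± 59.9 CPM, SD, n = 4), neutrophil-like cells (120 ± 39.4) and Kupffer-like cells (106 ± 23.6), with overlapping ranges. The Jaml-high mean again rests on few cells outside LFD_shYap. Kupffer-like cells numbered only 42, 77, 23 and 47 in library order. The known partners of Pnpla2 did not share one pattern. Abhd5, the coactivator of Pnpla2, was at 15.7 to 16.6 CPM in phagocytes and at 44.4 to 61.4 in neutrophils. G0s2, an inhibitor of Pnpla2, was at 2366 to 4283 CPM in neutrophils and at 3.20 to 11.5 in phagocytes. Lipe, the next lipase of the pathway, was at 9.42 to 11.2 CPM in phagocytes.

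Hilpda was highest in neutrophil-like cells (1443 ± 1108 CPM, SD, n = 4) and next in Kupffer-like cells (538 ± 172 CPM, SD, n = 4), followed by the Marco/Saa3 macrophage-like (507 ± 174) and monocyte-like (494 ± 191) clusters. The Kupffer-like mean rests on the few cells given above. In neutrophils LFD_WT had 436 CPM, LFD_shYap 752, HFD_WT 2903.5 and HFD_shYap 1680, so that both high-fat libraries lay above both low-fat ones. It was lowest in cDC1-like cells at 24.2 CPM. In the T lineage Hilpda reached 80.1% to 131% of the phagocyte level of the same library, above the share of the macrophage genes.

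Acot1 was highest in Kupffer-like cells (73.1 ± 45.3 CPM, SD, n = 4, from 153 UMIs in all) and neutrophil-like cells (68.4 ± 44.9, from 343 UMIs). The Kupffer-like mean again rests on few cells, and its LFD_WT value on 7 UMIs. Monocyte-like cells followed at 17.98 ± 13.5 CPM, with overlapping ranges. Its neighbour Acot2 was more even, at 5.94 to 10.5 CPM in phagocytes and 13.3 to 15.2 in the T lineage. Acot3 and Acot5 were at or near 0.

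Angptl4 was highest outside the leukocytes, in fibroblast-like cells (56.7 ± 36.1 CPM, SD, n = 4) and in the Ptprc-low tumour-like cluster (48.9 ± 14.03), and an unnamed cluster of 145 cells with Igfbp7, Col1a2 and Gpihbp1 was at 81.5 to 111 CPM. In fibroblast-like cells LFD_WT had 22.3 CPM, LFD_shYap 107, HFD_WT 50.6 and HFD_shYap 46.5, so that LFD_WT was lowest. Cpt1a was the most even member: its highest mean, in Marco/Saa3 macrophage-like cells, was 60.5 ± 9.68 CPM and its lowest, in pDC-like cells, 16.2. Pdk4 was rare, with 98 UMIs in all phagocytes, of which 54 came from the Marco/Saa3 macrophage-like cluster. Its relatives Pdk1 and Pdk3 were at 21.6 to 37.8 and 17.2 to 21.2 CPM in phagocytes.

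**Figure D1:**
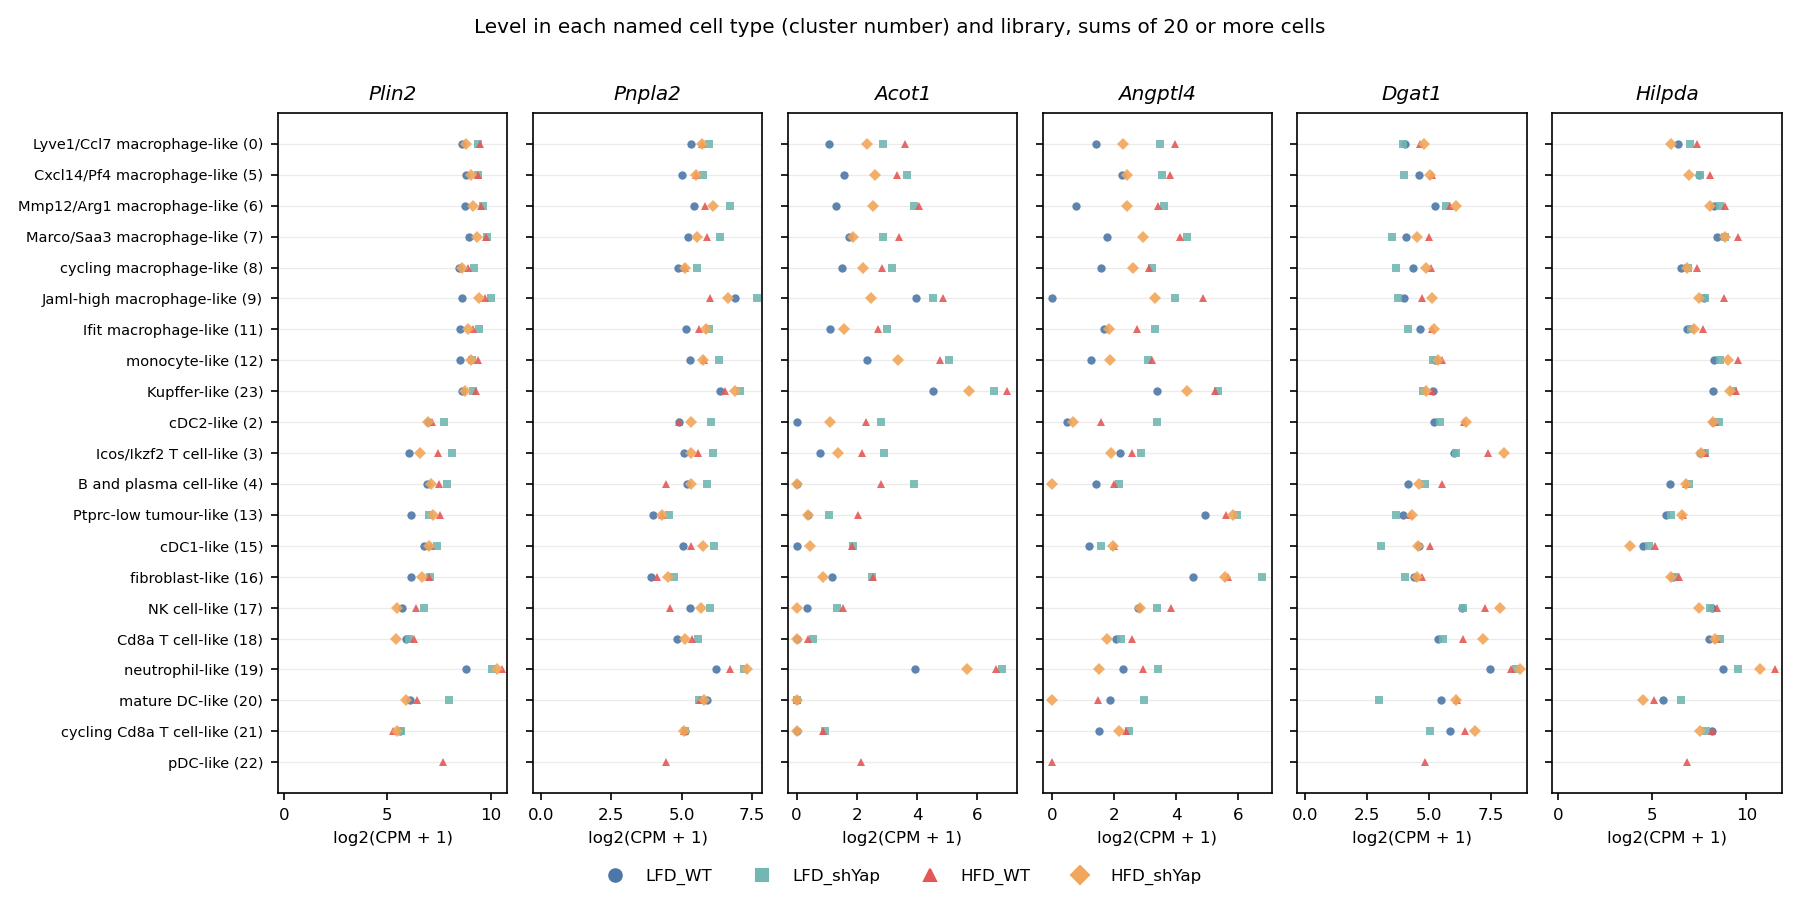
Level of 6 members, as log2(CPM + 1), in each of the 21 named clusters (number in brackets); each point is the sum of 20 or more cells of 1 library. Plin2 is high throughout the phagocytes, Angptl4 in the fibroblast-like and tumour-like rows and Dgat1 in the neutrophil-like, T and NK cell-like rows, and in most rows the LFD_WT point lies left of the others for Plin2, Acot1 and Angptl4.

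Between lineages, 5 of the 7 members that passed the filter on low counts were higher in neutrophils than in phagocytes, and 0 were lower. Of all genes tested 26.2% were called higher, 37.5% lower and 63.7% in either direction, so that a call as such sets no member apart. In edgeR's quasi-likelihood test with the library as a block, neutrophils exceeded phagocytes for Dgat1 (log2 fold change 3.77 ± 0.218, SE, adjusted p = 1.49e-10), Acot1 (3.36 ± 0.147, adjusted p = 4.18e-12) and Hilpda (2.67 ± 0.312, adjusted p = 1.25e-06). The same edgeR test gave 1.37 ± 0.184 for Pnpla2 (adjusted p = 5.82e-06) and 1.15 ± 0.215 for Plin2 (adjusted p = 0.000199). Neutrophils lay above phagocytes in 4 of 4 libraries for each of these 5, with Plin2 in LFD_WT nearest, at 109%. Angptl4 (-0.08 ± 0.365, adjusted p = 0.856 in edgeR) and Cpt1a (-0.27 ± 0.154, adjusted p = 0.127) did not pass, and Pdk4 had 0 UMIs in the neutrophils of every library, which at 3 UMIs allows up to 1.41 CPM in HFD_WT, the deepest, and up to 4.84 in LFD_shYap, the shallowest. Of the lists, 5 of 7 measured genes of lipolysis and its regulators were higher in neutrophils and 1 lower, whereas 14 of 19 of mitochondrial fatty acid oxidation were lower and 1 higher. The median log2 fold change was 1.37 for the former list and -0.99 for the latter, beside -0.32 over all genes. G0s2, Abhd5, Hilpda, Pnpla2 and Lipe were the lipolysis genes that were higher, and Lipa the one that was lower.

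In the T lineage 1 of 7 members was higher than in phagocytes and 5 were lower, where 33.3% of all genes were higher, 35.7% lower and 69% called in either direction. Plin2 (-2.80 ± 0.227, SE, adjusted p = 5.16e-09 in edgeR) and Acot1 (-2.98 ± 0.228, adjusted p = 2.44e-09) were lower. In library order Plin2 stood at 14.8%, 15.997%, 15.9% and 11.9% of its phagocyte level and Acot1 at 15.5%, 15.1%, 11.4% and 11.8%. The 7 macrophage genes stood near these, at 15.2%, 14.6%, 13.8% and 11.9%. The part of free RNA in the T lineage totals of Plin2 and Acot1 was not tested, and these totals are not taken as levels of T cells. The Icos/Ikzf2 T cell-like cluster was higher than the Cd8a cluster for Plin2, with 282 against 65.6 CPM in LFD_shYap. The macrophage gene C1qa was also higher there, at 1485 against 407 CPM over all libraries, and its part in the Plin2 difference was not tested. Dgat1 was higher in the T lineage (1.63 ± 0.200, adjusted p = 1.18e-06 in edgeR), at 257% to 437% of the phagocyte level. Cpt1a, Angptl4 and Pnpla2 were lower by 0.77, 0.90 and 0.59 on the log2 scale (adjusted p = 1.33e-05, 0.00218 and 0.00542 in edgeR), and Hilpda did not pass (0.17 ± 0.289, adjusted p = 0.628). With DESeq2 neither Angptl4 (-0.64, adjusted p = 0.0856) nor Pnpla2 (-0.45, adjusted p = 0.0632) passed, and Angptl4 of the T lineage was above phagocytes in LFD_WT, on 10 UMIs. Pnpla2 also did not pass in edgeR without LFD_shYap (-0.36, adjusted p = 0.0582).

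**Figure D2:**
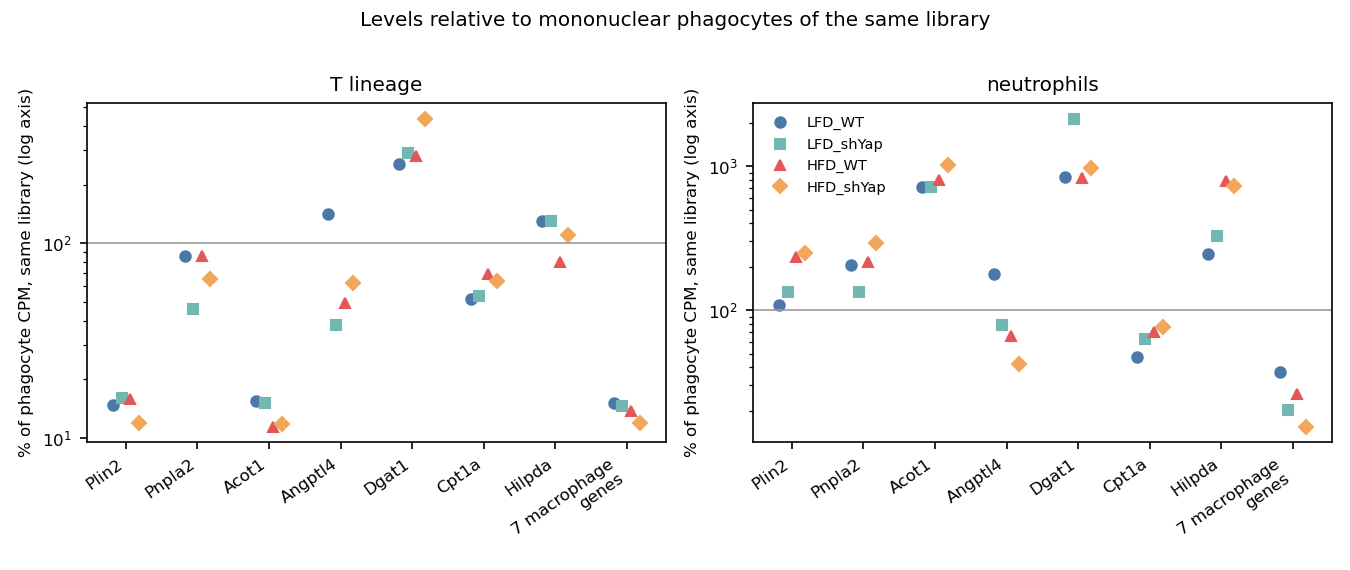
CPM of 7 members in the T lineage (left) and in neutrophils (right) as a percentage of the phagocyte CPM of the same library, on a log axis, with the sum of 7 macrophage genes as a measure of free RNA. Plin2 and Acot1 of the T lineage fall near the macrophage genes (11.9% to 15.2%), while Dgat1 in both lineages and Acot1 and Hilpda in neutrophils lie above 100%.

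Across the libraries the members fell into different orders in phagocytes. LFD_WT was the lowest of the 4 for 7 of 8 members, all but Dgat1, an order that 18.7% of all genes showed. LFD_shYap and HFD_WT lay above both other libraries for Plin2, Acot1, Angptl4 and Pdk4, which is 4 of 8 against 8.93% of all genes. Both high-fat libraries lay above both low-fat ones for Dgat1 and Hilpda, 2 of 8 against 20.4% of all genes, though for Hilpda the shYap libraries differed by less than counting error (ratio 1.005, 0.982 to 1.03).

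Acot1 and Angptl4 varied most among the members with over 100 UMIs a library. For Acot1, LFD_WT had 2.01 CPM (1.68 to 2.38), LFD_shYap 15.6 (14.7 to 16.5), HFD_WT 12.3 (11.4 to 13.2) and HFD_shYap 4.83 (4.29 to 5.42). Angptl4 was at 2.19 CPM (1.85 to 2.59), 12.3 (11.5 to 13.2), 9.87 (9.10 to 10.7) and 4.35 (3.84 to 4.91) in library order. For both genes LFD_shYap and HFD_WT were high, LFD_WT was low and HFD_shYap lay between. Pdk4 had 2, 61, 30 and 5 UMIs. Its counts follow the same order, on few molecules.

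For Pnpla2, LFD_WT had 35.7 CPM, LFD_shYap 109, HFD_WT 47.6 and HFD_shYap 54.1, so that LFD_shYap stood alone above the rest. Cpt1a was at 38.7, 56.5, 41.7 and 48.6 CPM, with both shYap libraries above both WT ones. Hilpda was at 178, 230, 367 and 231 CPM, highest in HFD_WT. For Dgat1, LFD_WT had 20.8 CPM (19.7 to 21.9), LFD_shYap 16.8 (15.9 to 17.8), HFD_WT 38.4 (36.9 to 40.0) and HFD_shYap 41.5 (39.9 to 43.1), a split by labelled diet with no overlap of the counting intervals.

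**Figure D3:**
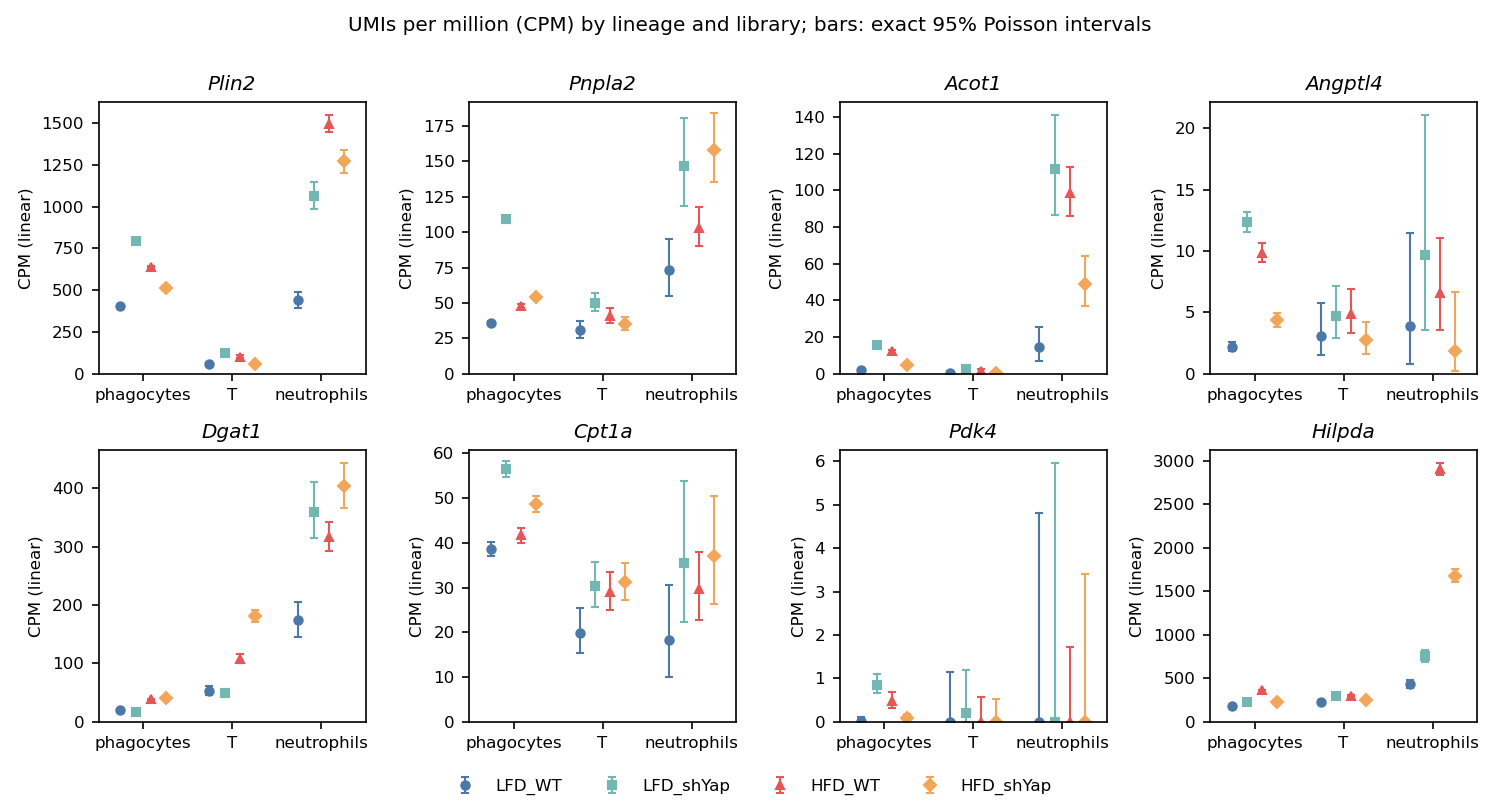
CPM of each member in phagocytes, the T lineage and neutrophils, 1 point a library with its exact 95% Poisson interval (counting error only, no replicates). In phagocytes Acot1 and Angptl4 peak in LFD_shYap and HFD_WT, Pnpla2 in LFD_shYap and Dgat1 in both high-fat libraries.

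Single libraries were compared by the ratio of their CPM, with an exact 95% interval for counting error and no test of the condition. Between the WT lines, HFD_WT was above LFD_WT 6.12-fold for Acot1 (5.08 to 7.44), 4.50-fold for Angptl4 (3.74 to 5.44), 2.07-fold for Hilpda (2.02 to 2.11) and 1.58-fold for Plin2 (1.55 to 1.60). Between the shYap lines the ratio of high-fat to low-fat was below 1 for 6 members. It was 0.310 for Acot1 (0.272 to 0.353), 0.353 for Angptl4 (0.306 to 0.405), 0.496 for Pnpla2 (0.476 to 0.517) and 0.645 for Plin2 (0.636 to 0.654). The median ratio over all genes was 0.977 for the WT pair and 1.12 for the shYap pair, so these shYap ratios lie further from the general level than from 1. Dgat1 was higher on the high-fat side in both pairs, 1.85-fold (1.73 to 1.98) and 2.47-fold (2.30 to 2.65).

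Between the lines, LFD_shYap was above LFD_WT 7.77-fold for Acot1 (6.47 to 9.40), 5.63-fold for Angptl4 (4.71 to 6.77), 3.05-fold for Pnpla2 (2.91 to 3.20) and 1.96-fold for Plin2 (1.93 to 1.99). Under the treatment field this pair differs in diet as well as line. HFD_shYap was below HFD_WT for Acot1 (ratio 0.393, 0.343 to 0.451), Angptl4 (0.441, 0.380 to 0.511), Hilpda (0.629, 0.616 to 0.643) and Plin2 (0.803, 0.792 to 0.815). The pairs share libraries and are not independent of one another. Those with HFD_shYap also differ in Xist, as given above.

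**Figure D4:**
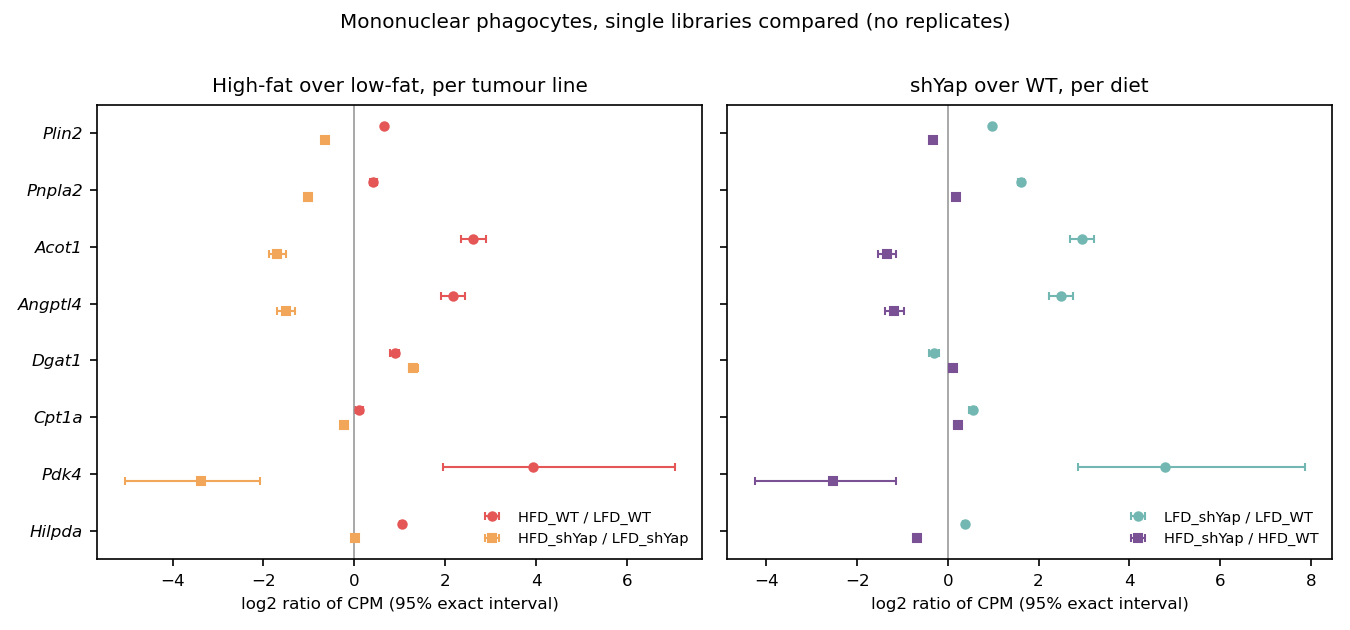
Log2 ratio of phagocyte CPM between single libraries for each member, high-fat over low-fat within each line (left) and shYap over WT within each diet (right), with exact 95% intervals for counting error. Acot1, Angptl4, Pdk4 and Plin2 point in opposite directions in the paired comparisons, and Dgat1 lies right of 0 in both diet comparisons.

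The orders of Plin2, Acot1, Angptl4 and Dgat1 were also seen with the mix of clusters held equal, and that of Hilpda was not. Over the 7 clusters with 50 or more cells in every library, weighted equally, Plin2 was at 405, 693, 674 and 510 CPM, Acot1 at 1.99, 12.3, 11.9 and 4.51, and Angptl4 at 2.04, 10.99, 10.8 and 4.24 in library order. Dgat1 was at 24.4, 21.9, 36.4 and 36.1 CPM, a narrower gap between the diets than in the summed cells. Hilpda was at 205, 257, 397 and 243 CPM, so that HFD_shYap lay below LFD_shYap. LFD_WT was the lowest library in 7 of 7 clusters for Plin2, Pnpla2, Acot1 and Angptl4, in 6 of 7 for Cpt1a and in 4 of 7 for Hilpda. For Pdk4 it was alone the lowest in 1 of 7, since other libraries also had 0 UMIs in most clusters. Over all named types with 20 or more UMIs of a gene, LFD_WT was lowest in 16 of 21 for Plin2, 11 of 14 for Acot1, 14 of 17 for Angptl4 and 15 of 20 for Cpt1a, beside a median of 21.5% of genes in a type. LFD_shYap and HFD_WT lay above both other libraries in 18 of 21 types for Plin2, 14 of 14 for Acot1 and 15 of 17 for Angptl4, beside a median of 11.5% of genes. These types include fibroblast-like cells, with Plin2 at 70.4, 131, 128 and 103 CPM. In the tumour-like cluster it was at 70.1, 128, 189 and 146, with LFD_WT lowest but HFD_shYap above LFD_shYap. Pnpla2 was highest in LFD_shYap in 19 of 21 types, beside a median of 19.3% of genes. Both high-fat libraries lay above both low-fat ones for Dgat1 in 16 of 20 types and for Hilpda in 4 of 21, beside a median of 18.97%. Hilpda was highest in HFD_WT in 15 of 21 types, and in 13 of 21 LFD_shYap and HFD_WT lay above both other libraries. Types of 1 library share its free RNA and its handling, so the types are not independent.

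Diet and line were tested over the 4 libraries with edgeR's additive model, in which 1 degree of freedom is left for error and a different diet effect in the 2 lines would fall into that error. In phagocytes 1 of 8 members, Dgat1, rose with the labelled high-fat diet (log2 fold change 1.03 ± 0.144, SE, adjusted p = 0.0297), where 0.341% of all genes were called higher, 0.135% lower and 0.476% in either direction. Without HFD_WT or HFD_shYap the Dgat1 value was 1.02 in both cases and did not pass (adjusted p = 0.149 and 0.148 in edgeR), nor did it without doublet removal (0.98, adjusted p = 0.0501) or with no filter on low counts (1.03, adjusted p = 0.889). With the H2-Eb1 cluster added to the class it was 1.02 (adjusted p = 0.0547 in edgeR), without LFD_WT 1.14 (adjusted p = 0.000710), without LFD_shYap 0.92 (adjusted p = 0.0240), and without the Jaml-high cluster 0.96 (adjusted p = 0.0152). Under the treatment entry it was 0.92 with adjusted p = 1.0. The other 7 members did not pass, with adjusted p from 0.938 to 0.998 in edgeR. Their log2 fold changes ran from -0.37 for Pnpla2 to 0.46 for Hilpda, with an SE of 0.965 for Acot1 and 0.805 for Angptl4. Without LFD_WT, Acot1, Angptl4 and Pnpla2 were lower with the high-fat label (-0.95, -0.89 and -1.21, adjusted p = 0.00445, 0.0169 and 0.000403 in edgeR), and without LFD_shYap, Acot1 and Angptl4 were higher (2.09 and 1.69, adjusted p = 4.83e-09 and 1.06e-05). Over tumour line 0 of 8 passed, where 0.0071% of all genes were called higher, 0.0284% lower and 0.0355% in either direction. Pnpla2 alone was under 0.05 without adjustment (0.89 ± 0.336, SE, adjusted p = 0.692 in edgeR), and DESeq2 also called 0.

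With the diet of LFD_shYap read from its treatment entry, LFD_WT is the sole low-fat library. The edgeR estimate for diet in phagocytes was then 2.64 for Acot1, 2.20 for Angptl4, 3.89 for Pdk4 and 0.69 for Plin2 on the log2 scale. None of these passed, with adjusted p from 0.779 to 1.0 in edgeR, and 0 genes passed in all. In neutrophils the same reading gave 2.93 for Acot1 (adjusted p = 0.000605 in edgeR) and 2.90 for Hilpda (adjusted p = 0.0150). Which label holds cannot be told from these values.

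In the T lineage 1 of the 6 members tested was called over diet, again Dgat1, where 0.661% of all genes were called higher, 0.496% lower and 1.16% in either direction. LFD_WT had 53.3 CPM (45.6 to 61.9), LFD_shYap 49.01 (42.9 to 55.8), HFD_WT 108 (100.1 to 116) and HFD_shYap 181 (171 to 192), and the high-fat libraries lay above the low-fat ones without overlap. The log2 fold change was 1.41 ± 0.190 (SE, adjusted p = 0.000115 in edgeR), and it passed without each library in turn, at 1.06 to 1.75, but not under the treatment entry (0.98, adjusted p = 0.998 in edgeR). Beside it, Apoe and C1qa fell in the same comparison (-1.19 and -0.64, adjusted p in edgeR at most 0.0409), as did Jun and Atf3 of 10 dissociation stress genes, while Hspa1b rose. Of the 7 macrophage genes 0 rose. The part of these changes in the Dgat1 value was not tested. Both high-fat libraries lay above both low-fat ones for Dgat1 in each of the 3 T cell-like clusters, with 63.8, 66.8, 165 and 261 CPM in Icos/Ikzf2 cells, 40.4, 46.2, 80.4 and 143 in Cd8a cells and 55.8, 31.8, 85.3 and 113 in cycling Cd8a cells. NK cell-like cells, which are not in the T lineage sums, were at 79.7, 80.3, 153 and 232 CPM. Plin2, whose T lineage level was near that of the macrophage genes, was at -0.70 over diet without HFD_WT. Over tumour line 0 of 6 passed, though Dgat1 did without LFD_shYap (1.06, adjusted p = 1.91e-05 in edgeR) and, in the other direction, without HFD_shYap (-0.75, adjusted p = 0.0373). With all libraries 0 were under 0.05 without adjustment, DESeq2 called 0, and of all genes 0.0367% were called higher, 0.211% lower and 0.248% in either direction. By order, LFD_WT was lowest for 4 of the 6 (32.4% of genes), LFD_shYap and HFD_WT lay above the others for 4 (13.7%), and both high-fat libraries lay above both low-fat ones for 1 (22.5%).

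In neutrophils 0 of 6 members passed over diet, where 0.0161% of all genes, which is 1 gene, were called, all higher and 0% lower. Without adjustment, Hilpda (1.98 ± 0.461, SE, adjusted p = 0.213 in edgeR) and Plin2 (1.04 ± 0.432, adjusted p = 0.466) were under 0.05, and DESeq2 called Hilpda (1.97, adjusted p = 0.00515). Without LFD_shYap, Hilpda (2.52, adjusted p = 0.000915 in edgeR), Acot1 (2.51, adjusted p = 0.00264) and Plin2 (1.77, adjusted p = 0.0322) passed, and without HFD_shYap, Hilpda did (2.34, adjusted p = 1.98e-05). For Plin2, LFD_WT had 440 CPM (394 to 490), LFD_shYap 1064, HFD_WT 1497 and HFD_shYap 1270. LFD_WT was lowest for 6 of 6 members tested (22.1% of genes), both high-fat libraries lay above both low-fat ones for Plin2 and Hilpda, 2 of 6 (17.6%), and LFD_shYap and HFD_WT lay above the others for Acot1, 1 of 6 (7.01%). Acot1 was at 14.4 CPM (7.17 to 25.7), 111 (86.7 to 141), 98.6 (85.7 to 113) and 49.1 (36.8 to 64.2), the library order of the phagocytes at 714% to 1015% of their level. Over line 0 of 6 passed and 0% of all genes were called, with Pnpla2 and Dgat1 under 0.05 without adjustment (0.83 ± 0.275 and 0.72 ± 0.302, SE, adjusted p = 0.479 for both in edgeR) and 0 called by DESeq2. The macrophage genes in neutrophils ranged from 37.2% of the phagocyte level in LFD_WT to 15.6% in HFD_shYap, and their part in these values was not tested.

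Of 20 measured PPAR target genes, 0 passed over diet or line in phagocytes, with a median log2 fold change of -0.04 over diet, beside -0.01 for all genes. In 8 of the 20, of which 4 are the members already given, LFD_shYap and HFD_WT lay above both other libraries, beside 8.93% of all genes. The others were Acot2, Acadl, Hadha and Fabp4, a fatty acid binding protein, at 5.45, 8.32, 12.5 and 7.53 CPM. Fabp5, of the same family, was more abundant, at 218, 143, 281 and 176 CPM, and lowest in LFD_shYap. The Hadha values, 79.3, 81.1, 80.2 and 76.0 CPM, were nearly level. Acot2, at 5.94, 10.5, 8.56 and 8.31 CPM, was nearly level between the high-fat libraries. Of mitochondrial fatty acid oxidation 0 of 20 genes passed, with a median of -0.11 over diet. Ucp2, a mitochondrial carrier, was at 631, 1293, 843 and 901 CPM. Of the receptors themselves, Ppard was at 13.7 to 15.7 CPM and Pparg at 3.50 to 4.72 in phagocytes, with Ppara at or under 0.0156. For Ppard and Pparg, 2 of 9 measured receptors and partners, both high-fat libraries lay above both low-fat ones, beside 20.4% of all genes.

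The hypoxia list holds Hilpda. In 12 of its 13 genes, Hilpda among them by less than its counting error, both high-fat libraries lay above both low-fat ones in phagocytes, and 5 passed over diet in edgeR (Ndrg1, Egln3, Ero1l, Vegfa and Slc2a1), with a list median of 0.73 beside -0.01 for all genes. Ndrg1, a hypoxia-induced gene, was at 15.6, 17.6, 60.4 and 59.6 CPM. The mix of clusters in the phagocyte sums differed between the libraries. The Mmp12/Arg1 cluster, with Xist and Vegfa among its leading genes, had 116, 149, 647 and 960 cells in library order. HFD_shYap, the only library with high Xist, held 51.3% of it, so its leading genes also mark that library. The Lyve1/Ccl7 cluster had 1790, 734, 298 and 375 cells. The part of this mix in the hypoxia values was not tested. In the T lineage Ndrg1, Vegfa and Bnip3 passed, 3 of 12, with a median of 0.52 beside -0.00148 for all genes, and in neutrophils 0 of 12 passed with a median of 1.25. Of the list of triglyceride and sterol ester synthesis, Dgat1 was the 1 gene of 14 to pass in phagocytes and in the T lineage. Over tumour line, G0s2 fell in the T lineage (-3.06 ± 0.379, SE, adjusted p = 8.04e-05 in edgeR), from 6.54 and 15.8 CPM in the WT libraries to 1.07 and 1.72 in the shYap ones, at levels far below the 2366 to 4283 CPM of neutrophils.

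The lists of lipid droplet proteins (10 measured), lipolysis (7), acyl-CoA thioesterases (7), pyruvate dehydrogenase kinases and phosphatases (8), PPAR receptors and partners (9) and fatty acid uptake and binding (11) had 0 genes called over diet or line in phagocytes. The same held for glucocorticoid response (8), dissociation stress (10), hepatocyte RNA (8) and macrophage RNA (7). The glucocorticoid list, whose pathway also acts on Pdk4 and Angptl4, had a median log2 fold change of 0.65 over line, beside 0.01 for all genes, and a summed level of 682, 935, 616 and 908 CPM.

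The Jaml-high macrophage-like cluster was found almost wholly in LFD_shYap, with 2030 of its 2152 cells there and 37, 37 and 48 in the other libraries. A cluster of 1 library may be that library and not a type. Jaml, which encodes an adhesion molecule of leukocytes, was at 281 CPM in its LFD_shYap cells and at 119 in the other phagocytes of that library, themselves above the 26.1 to 61.0 CPM of the others. In the other libraries the cluster was not above other phagocytes for Jaml beyond counting error. The Jaml ratio was 0.904 in LFD_WT (0.390 to 1.78), 1.02 in HFD_WT (0.641 to 1.55) and 1.20 in HFD_shYap (0.802 to 1.73). The name Jaml-high thus describes the LFD_shYap cells only. Over all libraries Jaml was also at 216 CPM in neutrophil-like and 230 in pDC-like cells. Pnpla2 was among the leading genes of the cluster: in LFD_shYap it was at 204 CPM in the cluster and 66.4 in other phagocytes, a ratio of 3.07 (2.93 to 3.21). The cluster held 58.0% of the phagocyte Pnpla2 UMIs of the library. Acot1 (1.71, 1.52 to 1.93), Plin2 (1.55, 1.52 to 1.57), Angptl4 (1.31, 1.14 to 1.51) and Cpt1a (1.13, 1.06 to 1.21) were also higher in it, and Dgat1 lower (0.659, 0.573 to 0.755). Hilpda was near level (0.946, 0.914 to 0.978). These ratios describe cells grouped by expression and carry no test.

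**Figure D5:**
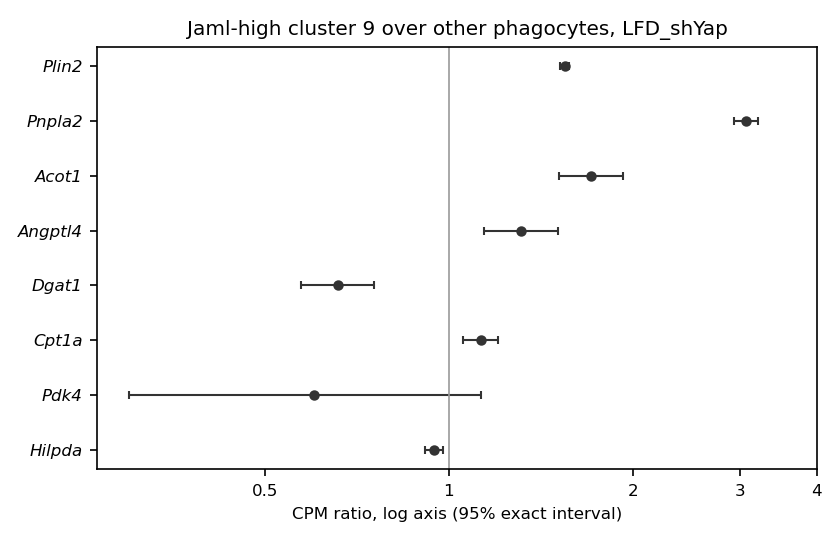
Ratio of CPM in the Jaml-high cluster to CPM in all other phagocytes of LFD_shYap for each member, on a log axis with exact 95% intervals for counting error. Pnpla2 lies at 3.07, Plin2, Acot1, Angptl4 and Cpt1a between 1.13 and 1.71, and Dgat1 at 0.659.

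In the few cells of the cluster in the other libraries the ratio for Pnpla2 was 3.34 in LFD_WT (2.38 to 4.56, from 40 UMIs), 1.31 in HFD_WT (0.821 to 1.99, 22 UMIs) and 1.86 in HFD_shYap (1.35 to 2.502, 44 UMIs). The part of the cluster in the higher level of LFD_shYap was not tested. Among the other phagocytes of LFD_shYap, Pnpla2, at 66.4 CPM, was above the 35.3, 47.6 and 53.8 of the other libraries. Plin2 there was at 678 CPM, against 404, 636 and 510. Jaml was also higher in these cells than in the other libraries, as given above. Acot1 outside the cluster was at 12.8 CPM, near the 12.2 of HFD_WT, beside 1.94 in LFD_WT and 4.84 in HFD_shYap.

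Over the 72 sums of a cluster and library with 50 or more cells, which share library, depth and free RNA, the members were described by Pearson's r of log2(CPM + 1). Plin2 was most like Acot1 (0.80) and Cpt1a (0.70) and least like Dgat1 (-0.15), and Dgat1 was most like Hilpda (0.50). Of all genes with at least 50 CPM in a sum, those most like Plin2 were Tpd52 (0.92), Atp6v1e1 (0.91) and Atp6v0d1 (0.91), of which the Atp6v genes encode subunits of the vacuolar proton pump. Those most like Acot1 were Fpr2 (0.77), Csf3r (0.77) and Atp6v1e1 (0.77), and those most like Angptl4 were Scarf2 (0.80), Htatip2 (0.79) and Htra1 (0.79). Pdk4 was most like Marco (0.77), Cd5l (0.76) and Fabp7 (0.70), of which Marco and Cd5l are macrophage genes. The nearest to Pnpla2 were Cnppd1 (0.79), Rnf169 (0.76) and Ypel5 (0.75), to Dgat1 Tinf2, Nabp1 (both 0.85) and Atp11b (0.84), to Cpt1a Man2a1 (0.86), Glul (0.85) and Nceh1 (0.81), and to Hilpda Sidt2 (0.83) and Cd164 (0.78).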

How the data were processed

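Raw UMI counts per gene and barcode, not normalized, were deposited by the authors; the matrices carry Cell Ranger 6.0.0 per the file headers, whereas Cell Ranger 4.0.0, STAR 2.5.1 and mm10 stand in the submitters' processing notes. From the deposited counts, barcodes with 200 or more genes and under 15% mitochondrial UMIs were kept. Doublets were removed by score rank (498 to 1264 a library, a share set by its number of barcodes), since the automatic call gave at most 1 a library. Cells were clustered with scanpy 1.11.5 (2000 variable genes, 30 components, 15 neighbours, resolution 1.0), leaving 19 member and pathway genes out, with no batch correction. Counts were summed per library and lineage (60419179 to 71118623 UMIs for phagocytes, 3209004 to 6993297 for the T lineage, 619523 to 2129499 for neutrophils) and tested with edgeR 4.0.16 (quasi-likelihood, TMM, filterByExpr, Benjamini-Hochberg at 0.05) in R 4.3.3. The method was tested on simulated data. With 1 library a group, p-values measure the spread between these libraries. Genes were named by rule: every member, those of 14 gene lists that passed the threshold, paralogs, partners and receptors by level, and the 3 genes most correlated with each member; other list genes named with values were chosen after these were seen. The members and lists were chosen with earlier results of these data known. A cluster led by H2-Eb1, Cd74 and Cxcl9 (3780 cells: 366, 584, 2092 and 738 in LFD_WT, LFD_shYap, HFD_WT and HFD_shYap) was kept out of the phagocytes because dendritic cell markers were among its leading genes. These were only Cadm1, 1 of 7 cDC1 markers, and Zmynd15, 1 of 7 markers of mature dendritic cells. Its C1qa, at 7075 CPM, lay within the 1727 to 7728 CPM of the phagocyte clusters. In the cDC1-like, mature DC-like and cDC2-like clusters C1qa was at 363, 530 and 1132 CPM. Of 10 macrophage markers 1, Ms4a7, was 2-fold or more above all other cells. The cluster may thus hold macrophages, which the phagocyte sums would then lack. One gene of the macrophage list and one correlated gene are not reported here.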

Additional observations from a re-analysis of the deposited data

Results flagged for a closer look

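In 10 cases a member was higher with the labelled high-fat diet in the WT line and lower in the shYap line, counting those with 20 or more UMIs in each pair of libraries and both counting intervals off 1. The 8 members were looked at in phagocytes, the T lineage and neutrophils. The share of all genes that meet the same rule was not computed, so the count is not read as a trait of the members. Acot1 and Angptl4 in the T lineage and Angptl4 in neutrophils pointed in opposite directions too, but did not meet that rule. With 1 library a combination the difference between the lines was not tested. In phagocytes the CPM ratio of high-fat to low-fat was 1.58 in the WT line and 0.645 in the shYap line for Plin2, 1.33 and 0.496 for Pnpla2, 6.12 and 0.310 for Acot1, and 4.50 and 0.353 for Angptl4. It was 1.08 and 0.860 for Cpt1a, and 15.4 and 0.0965 for Pdk4, the last from 2 to 61 UMIs a library. In the T lineage it was 1.69 and 0.481 for Plin2, whose level there was near that of the macrophage genes and may not be a case of its own, 1.33 and 0.705 for Pnpla2, and 1.27 and 0.844 for Hilpda. In neutrophils it was 6.86 and 0.441 for Acot1. All 10 include LFD_shYap, whose labels conflict on diet, and HFD_shYap, which stood apart by its Xist.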

How the results depend on the processing

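No paired analysis over diet or line was possible because the labels carry no replicate numbers and each group is 1 library. The comparisons between lineages did take the library as a block. The number of members called over diet in phagocytes, 1, was 0 with no filter on low counts, with no doublet removal, under the treatment entry and with the H2-Eb1 cluster added, an alternative chosen after seeing the data, as was leaving out the Jaml-high cluster, which gave 1; it ran from 0 to 4 when each library was left out. Over diet in the T lineage the number, 1, was 0 under the treatment entry and 1 to 2 with a library left out. Over diet in neutrophils the number, 0, was 1 with DESeq2, with no filter and with no doublet removal, 2 under the treatment entry, and 0 to 3 with a library left out. Over line in the T lineage it was 0 to 1 with a library left out. The direction changed without LFD_WT for Acot1 (-0.95, beside 0.32 with all libraries) and Angptl4 (-0.89, beside 0.21) over diet in phagocytes, and over the libraries left out these ran from -1.03 to 2.09 and from -0.90 to 1.69, the lowest without HFD_WT (adjusted p = 0.890 for both). Over line both turned from 0.74 and 0.61 to -0.67 and -0.57 without LFD_shYap (adjusted p = 0.850 and 0.849). It changed without HFD_shYap for Dgat1 over line in the T lineage (-0.75, beside 0.31; -0.75 to 1.06 over the libraries left out), and, with phagocyte clusters weighted equally, for the Dgat1 ratio of HFD_shYap to HFD_WT (0.990). Of 469 values of the members over diet or line under an alternative, 73 had the other sign, of which 3 came with a call. With a library left out, diet or line stood alone in the model, and the lone sample of an arm was assumed to vary like the others. Members called in the lineage comparisons were 4 of 7 with DESeq2 and 7 with no filter in the T lineage (5 to 6 with a library left out), and 5 to 6 in neutrophils. Over all genes, the 67 called over diet in phagocytes ranged from 0 (no filter) to 164 (DESeq2), the 126 of the T lineage from 10 (treatment entry) to 232 (no doublet removal) and the 1 of neutrophils from 0 (DESeq2 size factors) to 150 (no filter). Over line the 5, 27 and 0 ranged from 0 to 31, 0 to 93 and 0 to 22. With each library left out these counts ran from 23 to 425, 102 to 386 and 13 to 108 over diet, and from 0 to 8, 7 to 127 and 0 to 18 over line. The cause was not tested. Depth limits Pdk4 in all lineages and Acot1 and Angptl4 in the T lineage and neutrophils.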
